A study of Mus musculus with 8 samples.

Results

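The genes of the proteasome were read in CD44+ CD4+ T cells, the helper T cells that have met antigen, from skin-draining lymph nodes of BALB/cAJcl mice. All table entries whose symbol begins with Psm, a letter from a to g and a digit were taken, apart from Psmb8, Psmb9 and Psmb10, the inducible subunits of the immunoproteasome. This gave 45 genes of the 11841 in the table. The 4 genotypes were wild type (WT), T-bet-/- (T-bet-null), STAT6-/- (STAT6-null) and T-bet-/- STAT6-/- (double-null), with 2 libraries each, and the cells of all of them had been treated with PMA and ionomycin for 2 h, so that no unstimulated level was measured. The labels give neither the age of the mice nor which exons of Tbx21 and Stat6 had been removed.

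The 26S proteasome is the main protease of the cytosol and nucleus, and it degrades proteins that carry ubiquitin chains. Its 20S core is a stack of rings, with alpha subunits at the ends that gate the entrance and beta subunits in the middle, of which Psmb5, Psmb6 and Psmb7 cut peptide bonds. A 19S regulatory cap on the core binds ubiquitin chains, removes them and, through a ring of ATPases, unfolds the substrate. PA28, made by Psme1 and Psme2, is another activator of the core; it needs no ubiquitin and shapes peptides for presentation on MHC class I. Interferon exchanges the cutting subunits for Psmb8, Psmb9 and Psmb10. When proteasome capacity falls short, the factor NFE2L1 is known to raise the subunit genes together.

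By role, the 45 genes comprised 7 alpha and 7 beta subunits of the core, 6 ATPases and 11 non-ATPases of the cap, 3 assembly chaperones of the cap (Psmd5, Psmd9, Psmd10), 4 of the core (Psmg1 to Psmg4), the PA28 genes Psme1 and Psme2, and the regulators Psme3, Psme4 and Psmf1. The remaining pair were Psmb11, the core subunit of thymic cortical epithelium, and Psmc3ip, a cofactor of meiotic recombination that the symbol rule takes although it is no part of the proteasome. The 14 core and 17 cap genes of the symbol rule are called the 26S subunits, 31 in all. Cap subunits with other symbols, such as Adrm1, are not among them and are read with the partners below. Psmb11 lay between 0.381 and 0.686 FPKM (fragments per transcript length and per size of the library) and fell below the filter of 1 FPKM in 2 libraries. The other 44 genes were tested among 10281 genes. Their median level over all libraries was 50.5 FPKM, against 9.03 for all genes tested, and they lay on 16 chromosomes.

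The stretches of promoter shown here belong to genes whose RNA levels are described below: Psmb5 and Psmb6, which encode cutting subunits of the core and hold the short antioxidant response element that NFE2L1 and NFE2L2 recognise, and Psme1, which holds an interferon-type element. Gene positions throughout are those of the RefSeq annotation of GRCm38.p6, from which mm10 is drawn; they span the whole gene, and FPKM covers its exons. Each stretch runs from 100 bases before to 30 bases after the start used for the promoter window, 5′ to 3′ on the strand of the gene. For some genes, Psmb6 among them, that start is not the first base of the gene position but lies inside it. Capitals mark the match to TGACNNNGC in Psmb5 (chr14:54617966-54618095, minus strand) and Psmb6 (chr11:70525257-70525386, plus strand), and the match to the interferon element, a pair of GAAA half-sites with 2 bases between them read on the opposite strand, in Psme1 (chr14:55578394-55578523, plus strand).
Psmb5: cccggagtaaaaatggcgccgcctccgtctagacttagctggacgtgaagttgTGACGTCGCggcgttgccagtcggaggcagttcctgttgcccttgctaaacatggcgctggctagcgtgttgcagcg
Psmb6: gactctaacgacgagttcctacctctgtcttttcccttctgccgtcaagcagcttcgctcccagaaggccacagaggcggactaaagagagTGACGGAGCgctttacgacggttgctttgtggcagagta
Psme1: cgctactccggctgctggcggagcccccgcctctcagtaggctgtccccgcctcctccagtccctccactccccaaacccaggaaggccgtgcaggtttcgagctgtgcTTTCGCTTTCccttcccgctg
A match of letters is a description and not a binding site, and no binding was measured.

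Tbx21, which encodes T-bet, was at 1.44 to 2.49 FPKM in the 4 libraries that lack T-bet, 30.8 and 31.6 in the WT pair and 92.1 and 101.8 in the STAT6-null pair, and Stat6 was at 26.9 to 31.6 FPKM in the 4 libraries that lack STAT6 and at 88.8 to 90.9 in the others. The WT libraries stood apart over all genes: the correlation between libraries was 0.9965 to 0.9977 within a genotype, 0.9829 to 0.9888 from one mutant genotype to another and 0.9341 to 0.9536 from WT to a mutant (Pearson's r across genes, which are not independent replicates). Relative depth, read from the steps of low values, ran from 0.856 to 1.04 of that of WT replicate 1; absolute depth is not known. All 8 markers of the sorted T cells were present, with a summed level of 2973 to 3038 FPKM in WT and 2382 to 2865 in mutant libraries. Among other cell types, 2 of 8 listed erythroid genes were in the table (224 to 442 FPKM in WT, 2.63 to 7.48 in mutants), 7 of 12 myeloid and dendritic genes (186 to 191 against 102 to 145), 7 of 9 B cell genes (41.5 to 65.9 against 35.0 to 112) and 2 of 6 stromal and endothelial genes (24.2 to 25.996 against 8.15 to 11.3). Kit, the 1 of 4 mast cell and basophil genes present, was at 18.1 to 18.6 FPKM in WT and 8.11 to 62.9 in mutants, and the 4 Y-linked genes in the table summed to 103.8 to 110.04 against 29.5 to 67.9. Xist, Cd8a, Csf1r, Itgam, Itgax and Ncr1 were not in the table, which lists only genes above 0.1 FPKM in every library. Of 6 NK and innate-like genes, 3 were in the table, with a summed level of 1.58 to 1.76 FPKM in WT and 1.14 to 1.94 in mutants. Cd8b1, the 1 of 2 CD8 T cell genes present, was at 4.90 to 5.60 against 3.02 to 4.46 FPKM. The T cell, CD8, erythroid, myeloid, stromal and Y-linked values thus separated WT from the mutants, as the proteasome genes do below, and their part in the results was not tested.

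Most proteasome genes were more abundant in each mutant than in WT, by modest amounts. In T-bet-null cells 30 of the 44 genes rose and 3 fell, where 34.2% of all genes tested rose and 36.3% fell. In STAT6-null cells 34 rose and 0 fell, where 34.9% and 36.1% of all genes did. In double-null cells 36 rose and 2 fell, where 36.3% and 36.7% did. The totals of 33, 34 and 38 genes called in either direction stand beside 70.6%, 71.0% and 73.0% of all genes tested. The median log2 difference of the 44 genes was 0.30, 0.36 and 0.45 in these comparisons, against -0.016, -0.009 and -0.005 over all genes tested. These 3 comparisons share the WT libraries, so an offset of those libraries enters all of them. Calls were made with limma at an adjusted p under 0.05, log2 differences are of FPKM + 1, which understates changes of low genes, and RNA of a bulk sample cannot tell more cells of a type from more RNA per cell. The labels do not say whether 2 libraries of a genotype stem from different mice or cultures; the p-values therefore reflect the spread of these libraries alone, and that spread may be technical.

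**Figure D1:**
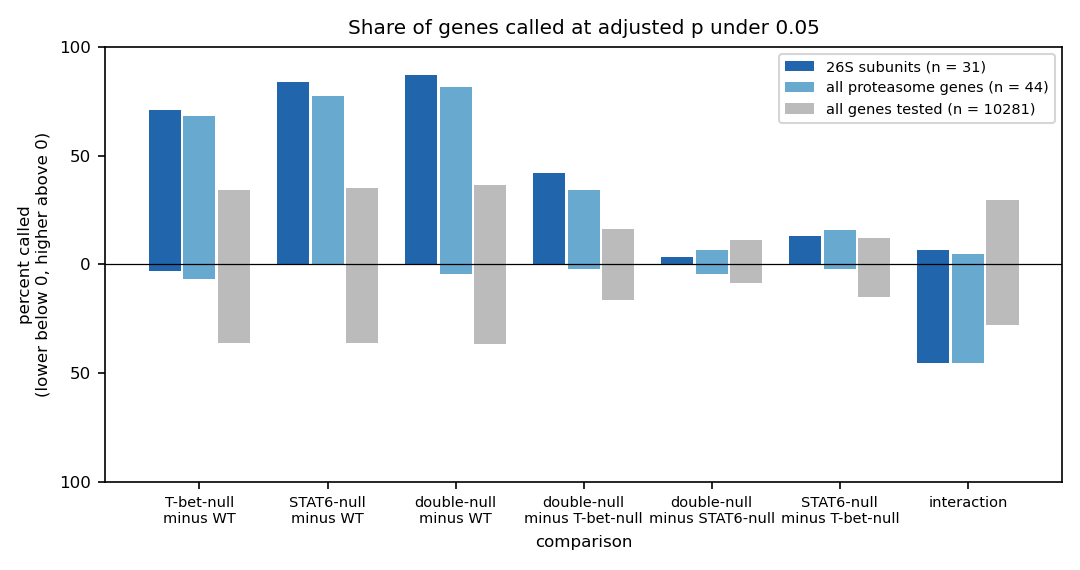
Share of genes called higher (bars above 0) or lower (bars below 0) at an adjusted p under 0.05 in limma, in percent, for each of the 7 comparisons. Bars show the 31 genes of the 26S subunits, all 44 proteasome genes tested and all 10281 genes tested; in the 3 comparisons with WT the proteasome bars reach far above 0 and hardly below it, among the mutants they are shorter, and in the interaction they lie mostly below 0.

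Counted by library, 31 of the 44 genes were higher in all 6 mutant libraries than in both WT libraries, as were 33.2% of all genes tested, and 1, Psme1, was lower in all 6, as were 33.7% of all genes. The other 12 overlapped. Among the 31 genes of the 26S subunits, 24 were higher in all 6 mutant libraries. The double-null cells had the highest mean of the 4 genotypes for 32 of the 44 genes, where 25.4% of all genes tested had it, and WT had the lowest mean for 36, where 40.2% did. Replicates of the double-null cells were not level: replicate 2 was above replicate 1 for 29 of the 31 26S genes, with a median gap of 0.09 on the log2 scale against 0.05 over all genes tested. In WT, replicate 2 was above replicate 1 for 6 of the 31, with a median gap of -0.07. These gaps are smaller than the median differences between WT and the mutants.

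**Figure D2:**
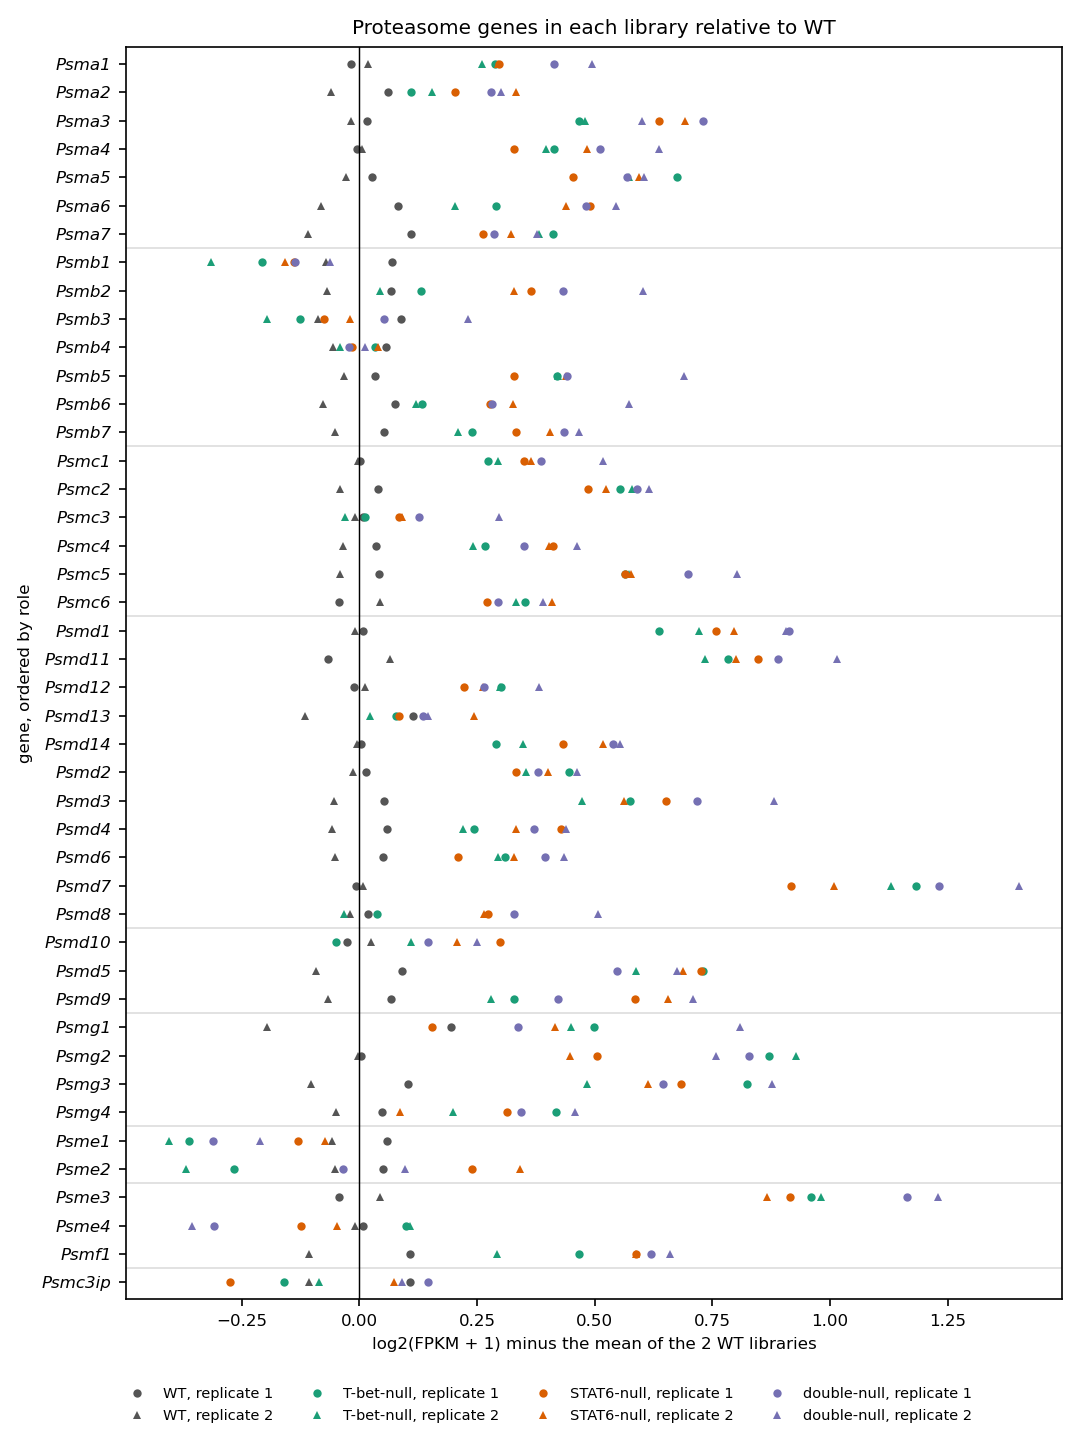
Level of each of the 44 tested genes in each library, as log2(FPKM + 1) minus the mean of the 2 WT libraries, with genes ordered by role; circles are replicate 1, triangles replicate 2, and colours are genotypes. Most mutant points lie to the right of the WT points, Psmd7 and Psme3 farthest, whereas Psmb4 stays at 0 and Psme1 lies to the left.

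Nearly the whole alpha ring of the core rose. All 7 alpha genes rose in double-null and STAT6-null cells, and 6 of 7 rose in T-bet-null cells, where 34.2% to 36.3% of all genes tested rose. The exception, Psma2 at 0.13 (SE 0.06, adjusted p = 0.0890), was called in T-bet-null cells without WT replicate 1 (0.19, adjusted p = 0.0410) and under quantile scaling (0.17, adjusted p = 0.0296). On the log2(FPKM + 1) scale, the mean over the 7 genes was 5.95 ± 0.055 for WT, 6.31 ± 0.021 for T-bet-null, 6.37 ± 0.049 for STAT6-null and 6.44 ± 0.029 for double-null libraries (SD, n = 2).

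Psma3 (chr12:70969283-70995877), an alpha subunit, was at 56.7 and 55.4 FPKM (WT), 77.8 and 78.6 (T-bet-null), 87.7 and 91.2 (STAT6-null) and 93.6 and 85.6 (double-null). All mutant libraries were above WT, and the log2 difference was 0.47 (SE 0.06, adjusted p = 8.57e-05), 0.66 (SE 0.06, adjusted p = 9.88e-06) and 0.67 (SE 0.06, adjusted p = 7.89e-06) in the order T-bet-null, STAT6-null, then double-null. Psma5 (chr3:108256926-108279952), the alpha gene of lowest level, was at 31.6 and 30.4 FPKM (WT), 50.1 and 46.6 (T-bet-null), 42.9 and 47.3 (STAT6-null) and 46.5 and 47.7 (double-null). It was again higher in every mutant library, with log2 differences of 0.62, 0.52 and 0.59, and the mutants overlapped each other. Psma7 (chr2:180036367-180042464), the most abundant alpha gene, was at 107 and 91.5 FPKM (WT), 132 and 129 (T-bet-null), 119 and 124 (STAT6-null) and 121 and 129 (double-null). Its differences were smaller, 0.40, 0.29 and 0.33, with adjusted p of 0.00125, 0.00640 and 0.00306. Psma6 was at 60.5 and 53.9 FPKM (WT), 70.03 and 65.9 (T-bet-null), 80.7 and 77.7 (STAT6-null) and 80.1 and 83.8 (double-null), and Psma6 was called in T-bet-null cells at 0.25 (SE 0.07, adjusted p = 0.00882) but not without WT replicate 2 (0.17, adjusted p = 0.0562) or without T-bet-null replicate 1 (0.20, adjusted p = 0.0707). Psma1, Psma2 and Psma4 were also higher in all 6 mutant libraries than in WT, and their double-null differences were 0.45, 0.29 and 0.57. RefSeq lists a pseudogene copy of Psma5, and fragments shared with such a copy could be divided between them, so its level is less certain.

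The beta ring was split. Psmb5 and Psmb7 rose in all 3 mutants and Psmb2 and Psmb6 in STAT6-null and double-null cells, while Psmb3 and Psmb4 were called in none and Psmb1 fell in T-bet-null cells. Of the 7 beta genes, 2 rose and 1 fell in T-bet-null cells, a share of higher calls (28.6%) below the 34.2% of all genes tested, and 4 rose and 0 fell in each of the other mutants (57.1%, against 34.9% and 36.3% of all genes). The ring's mean on the log2(FPKM + 1) scale was 6.33 ± 0.090 for WT, 6.39 ± 0.039 for T-bet-null, 6.50 ± 0.029 for STAT6-null and 6.62 ± 0.104 for double-null libraries (SD, n = 2).

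Psmb5 (chr14:54614120-54617995), which carries the chymotrypsin-like site of the core, was at 47.1 and 44.9 FPKM (WT), 61.9 and 61.9 (T-bet-null), 57.98 and 62.7 (STAT6-null) and 62.9 and 74.8 (double-null). Every mutant library was above both WT libraries; T-bet-null and STAT6-null overlapped, and the double-null pair was highest. The log2 differences were 0.42 (SE 0.08, adjusted p = 0.00147), 0.38 (SE 0.08, adjusted p = 0.00237) and 0.57 (SE 0.08, adjusted p = 2.07e-04). Psmb5 shares exon sequence with Mir686, listed at a mean of 348 FPKM on the same strand, and RefSeq lists a pseudogene copy; the rule by which fragments were divided was not given in the sources used. Psmb6 (chr11:70525324-70527858), the caspase-like site, was at 59.8 and 53.7 FPKM (WT), 62.3 and 61.7 (T-bet-null), 68.9 and 71.3 (STAT6-null) and 69.1 and 84.8 (double-null). All mutant libraries exceeded WT, but in T-bet-null cells the log2 difference of 0.13 (SE 0.09, adjusted p = 0.239) missed the threshold, whereas it was 0.30 (SE 0.09, adjusted p = 0.0154) in STAT6-null and 0.43 (SE 0.09, adjusted p = 0.00239) in double-null cells. The STAT6-null call for Psmb6 was lost without WT replicate 2 (0.23, adjusted p = 0.102) or STAT6-null replicate 2 (0.28, adjusted p = 0.0766). Psmb7 (chr2:38588046-38643952), the trypsin-like site, was at 83.8 and 77.9 FPKM (WT), 95.5 and 93.6 (T-bet-null), 102 and 107 (STAT6-null) and 109.6 and 112 (double-null). It was higher in every mutant library, in the order T-bet-null, STAT6-null, double-null, with log2 differences of 0.22, 0.37 and 0.45. Both Psmb6 and Psmb7 have pseudogene copies in RefSeq as well.

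Psmb4 (chr3:94884324-94886958), a non-catalytic beta subunit and the most abundant core gene, hardly differed between genotypes: it was at 146 and 135 FPKM (WT), 144 and 136 (T-bet-null), 139 and 144 (STAT6-null) and 138 and 142 (double-null). The groups overlapped fully, with log2 differences of 0.00, 0.01 and 0.00 and an SE of 0.06, so that a change such as that of Psmb5 lay far outside its error. With trends of transcript length and GC content removed, the T-bet-null difference of Psmb4 became 0.13 with an adjusted p of 0.0206, so its flatness depends on the scaling. Under the same correction the T-bet-null differences of Psmb2 and Psmb6 became 0.24 (adjusted p = 0.00236) and 0.28 (adjusted p = 0.00586), so that 5 of the 7 beta genes rose there. Psmb3 (chr11:97703434-97713500), its non-catalytic neighbour by role, was at 76.1 and 67.2 FPKM (WT), 65.4 and 62.3 (T-bet-null), 67.8 and 70.5 (STAT6-null) and 74.2 and 84.00 (double-null). It was not called against WT, at -0.16, -0.05 and 0.14, although its double-null value was called without WT replicate 1 (0.23, adjusted p = 0.0397) or double-null replicate 1 (0.23, adjusted p = 0.0345), and its T-bet-null value without WT replicate 2 (-0.25, adjusted p = 0.0301). Psmb1 (chr17:15475721-15498276), also non-catalytic, was at 121 and 110.05 FPKM (WT), 100.1 and 92.6 (T-bet-null), 105 and 104 (STAT6-null) and 105 and 111 (double-null). WT replicate 1 was the highest library and the T-bet-null pair the lowest, at -0.26 (SE 0.06, adjusted p = 0.00600), a call that was lost without T-bet-null replicate 2 (-0.21, adjusted p = 0.0606). In STAT6-null cells Psmb1 was at -0.15 (SE 0.06, adjusted p = 0.0675), and it was called without WT replicate 2 (-0.22, adjusted p = 0.0232), under quantile scaling (-0.16, adjusted p = 0.0283) and with the length and GC trends removed (-0.16, adjusted p = 0.0236). Psmb2 (chr4:126677637-126709715) was at 85.4 and 77.6 FPKM (WT), 89.3 and 83.9 (T-bet-null), 105 and 102 (STAT6-null) and 110.2 and 124 (double-null). Its T-bet-null libraries overlapped WT and its other mutant libraries were higher, giving 0.09, 0.35 and 0.52.

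Levels within a ring were closer together in the mutants. The most abundant alpha gene, Psma7, exceeded the least abundant, Psma5, 3.19-fold in WT and 2.65-fold to 2.69-fold in the mutants, and among beta genes the ratio of Psmb4 to Psmb5 was 3.05 in WT and 2.03 in double-null cells. FPKM is a level per transcript length, but trends of length and GC content and fragments shared with other copies can still enter these ratios. Psma5 and Psmb5 are among the genes with pseudogene copies described above. The ATPases of the cap went the other way, from 1.41-fold between Psmc5 and Psmc6 in WT to 1.87-fold in double-null cells.

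Nearly all cap genes of the symbol rule rose. Of these 17 genes, 14 rose with T-bet lost, 15 with STAT6 lost and 16 with both lost, where 34.2%, 34.9% and 36.3% of all genes tested rose, and 0 fell in any mutant. For the 14 core genes the counts were 8 higher and 1 lower, 11 and 0, and 11 and 0. The geometric mean level of the cap genes was 36.7 ± 0.699 FPKM for WT, 48.6 ± 0.507 for T-bet-null, 50.4 ± 0.844 for STAT6-null and 54.4 ± 2.56 for double-null libraries, and that of the core genes was 69.5 ± 3.53, 80.7 ± 1.69, 85.5 ± 2.33 and 91.2 ± 4.25 (SD, n = 2). Within a library, the cap-to-core ratio of these means was 0.517 and 0.541 in WT and between 0.586 and 0.607 in the 6 mutant libraries, which did not overlap WT. Such a ratio does not depend on the scaling of a library. Trends of transcript length and GC content were not removed from it, and that correction raised the T-bet-null differences of Psmb2, Psmb4 and Psmb6 (above). The parts of core and cap were not alike. On the log2(FPKM + 1) scale, mutant means exceeded WT by 0.364, 0.416 and 0.488 for the alpha genes and 0.062, 0.174 and 0.286 for the beta genes. The excess was 0.335, 0.378 and 0.461 for the cap ATPases and 0.429, 0.485 and 0.604 for the non-ATPases.

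**Figure D3:**
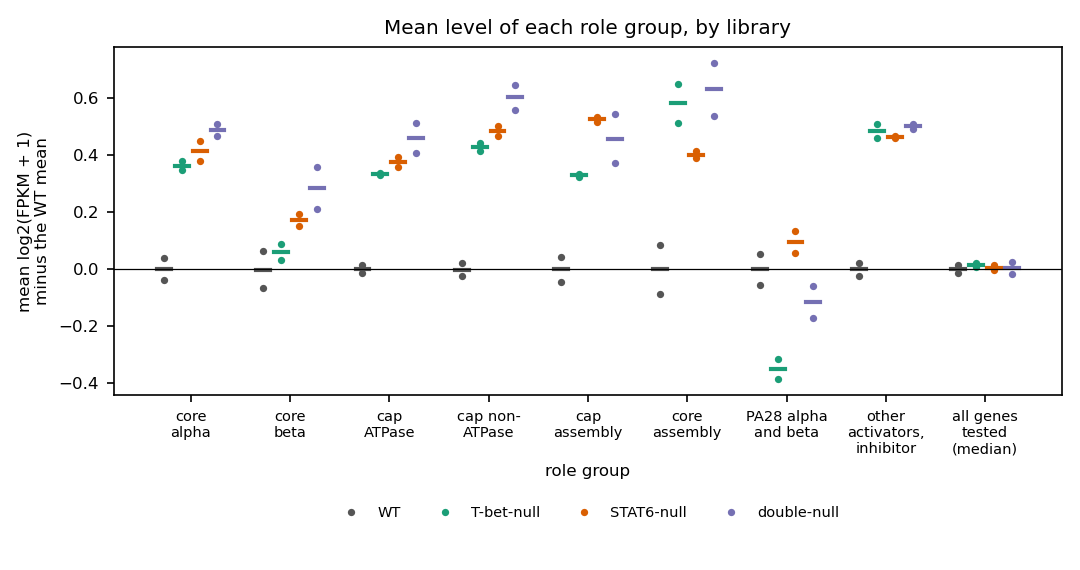
Mean log2(FPKM + 1) of the genes of each role group in each library, minus the WT mean, with the median of all genes tested at the right; points are libraries and short lines are genotype means (n = 2). The mutant means of the cap lie between 0.34 and 0.60 above WT and those of the core beta genes between 0.06 and 0.29, PA28 lies below WT in T-bet-null cells, and the median of all genes stays near 0.

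The 6 ATPases form the unfolding ring that sits on the core. Psmc5 (chr11:106256185-106263112), the most abundant of them, was at 47.1 and 44.4 FPKM (WT), 68.1 and 68.5 (T-bet-null), 68.1 and 68.7 (STAT6-null) and 74.8 and 80.5 (double-null). Its mutant libraries lay well above WT, with log2 differences of 0.57 (SE 0.06, adjusted p = 2.44e-05), 0.57 (SE 0.06, adjusted p = 2.14e-05) and 0.75 (SE 0.06, adjusted p = 3.32e-06). Psmc2 (chr5:21785275-21803787) was at 35.8 and 33.8 FPKM (WT), 51.6 and 52.5 (T-bet-null), 49.1 and 50.5 (STAT6-null) and 52.9 and 53.9 (double-null). It too was higher in all mutant libraries, by 0.57, 0.50 and 0.60, with the mutants close to each other. Psmc6 (chr14:45329823-45349074), the least abundant, rose by 0.34, 0.34 and 0.34, and Psmc1 and Psmc4 by 0.45 and 0.41 in double-null cells. Psmc3 (chr2:91054016-91059438) was the exception, at 42.9 and 42.4 FPKM (WT), 43.03 and 41.8 (T-bet-null), 45.3 and 45.4 (STAT6-null) and 46.6 and 52.6 (double-null). Its T-bet-null libraries overlapped WT (-0.01), its STAT6-null difference was 0.09 (SE 0.06, adjusted p = 0.238), and the double-null call at 0.21 (SE 0.06, adjusted p = 0.0133) was lost without WT replicate 2 (0.20, adjusted p = 0.0508) or double-null replicate 2 (0.13, adjusted p = 0.0789) and under quantile scaling (0.10, adjusted p = 0.129). With the length and GC trends removed, the STAT6-null value of Psmc3 was called (0.17, adjusted p = 0.0171). Psmc3 shares exon sequence with Slc39a13 on the opposite strand, at a mean of 2.74 FPKM.

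Among the 11 non-ATPases of the cap, Psmd7, Psmd11 and Psmd1 had the largest differences. Psmd7 (chr8:107580380-107588482), the scaffold partner of the deubiquitinase Psmd14, was at 30.6 and 30.97 FPKM (WT), 71.1 and 68.5 (T-bet-null), 58.99 and 62.98 (STAT6-null) and 73.7 and 83.03 (double-null). Every mutant library lay far above both WT libraries, with the STAT6-null pair lowest of the mutants. The log2 difference was 1.16 (SE 0.07, adjusted p = 1.40e-06) in T-bet-null, 0.96 (SE 0.07, adjusted p = 2.78e-06) in STAT6-null and 1.32 (SE 0.07, adjusted p = 3.73e-07) in double-null cells, and it was the largest of the 44 genes in each. Psmd11 (chr11:80428615-80473248), a lid subunit that contacts the ATPase ring, was at 41.00 and 45.03 FPKM (WT), 74.7 and 72.1 (T-bet-null), 78.1 and 75.5 (STAT6-null) and 80.4 and 87.8 (double-null). It was higher in every mutant library, by 0.76, 0.82 and 0.95. Psmd1 (chr1:86064619-86139295), the scaffold of the cap's base and the least abundant of the 11 genes in WT, was at 16.8 and 16.6 FPKM (WT), 26.4 and 28.1 (T-bet-null), 28.9 and 29.7 (STAT6-null) and 32.3 and 32.1 (double-null), and the differences were 0.68, 0.78 and 0.91. Each of these genes had non-overlapping WT and mutant libraries.

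Psmd14 (chr2:61711694-61800376), the deubiquitinase that strips ubiquitin from the substrate, was at 32.6 and 32.4 FPKM (WT), 39.9 and 41.6 (T-bet-null), 44.1 and 46.9 (STAT6-null) and 47.6 and 48.1 (double-null). It was higher in all mutant libraries, by 0.32, 0.48 and 0.55. Psmd2 (chr16:20651122-20663414), the other large base scaffold, rose by 0.40, 0.37 and 0.42, and Psmd4 (chr3:95032688-95042614), a receptor for ubiquitin chains, by 0.23, 0.38 and 0.41. Psmd3, Psmd6 and Psmd12, structural subunits of the lid, were likewise higher in all 6 mutant libraries, with double-null differences of 0.80, 0.41 and 0.32. The remaining pair departed from the group. Psmd8 (chr7:29174187-29180673), the most abundant cap gene, was at 93.9 and 91.4 FPKM (WT), 95.2 and 90.6 (T-bet-null), 112 and 111 (STAT6-null) and 117 and 132 (double-null), with T-bet-null level with WT (0.00, SE 0.07) and both STAT6-deficient genotypes higher (0.27 and 0.42). Psmd13 (chr7:140882394-140898642), a lid subunit, was at 31.6 and 26.8 FPKM (WT), 30.8 and 29.6 (T-bet-null), 30.9 and 34.6 (STAT6-null) and 32.1 and 32.3 (double-null), and was not called, at 0.05, 0.16 and 0.14. Its T-bet-null and STAT6-null libraries overlapped WT, and the double-null pair lay just above WT replicate 1. Without WT replicate 1, its STAT6-null and double-null values were called (0.28, adjusted p = 0.0161, and 0.26, adjusted p = 0.0216), as was the STAT6-null value with the length and GC trends removed (0.22, adjusted p = 0.0241). Psmd13 shares exon sequence with Sirt3 on the opposite strand. In all, 12 of the 45 genes have exons that overlap another gene. Psmd1 and Psmg3 do so on the same strand, and Psma4, Psma5, Psmb7, Psmd3, Psmd9 and Psme1 on the opposite strand. As strandedness is not known, fragments of the other gene could enter these levels.

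Assembly chaperones are not part of the finished particle, and all but Psmg4 were less abundant than every 26S gene in each library. The 3 chaperones that build the ATPase ring all rose in STAT6-null and double-null cells, and 2 of 3 rose in T-bet-null cells; the share of all genes tested that rose was 34.2% to 36.3% across these comparisons. Psmd5 (chr2:34852087-34870965) was at 6.43 and 5.55 FPKM (WT), 10.6 and 9.49 (T-bet-null), 10.5 and 10.2 (STAT6-null) and 9.19 and 10.1 (double-null). It was higher in all mutant libraries, by 0.66, 0.71 and 0.61, and the T-bet-null pair overlapped both other mutants. Psmd9 (chr5:123228190-123250126) was at 3.23 and 2.86 FPKM (WT), 4.08 and 3.91 (T-bet-null), 5.06 and 5.37 (STAT6-null) and 4.42 and 5.61 (double-null), and rose by 0.30, 0.62 and 0.57, the first of which (adjusted p = 0.0228) was lost without WT replicate 2 (0.24, adjusted p = 0.125), T-bet-null replicate 1 (0.28, adjusted p = 0.0958) or T-bet-null replicate 2 (0.33, adjusted p = 0.0587). Psmd10 (chrX:140948425-140956711), known as gankyrin, was at 10.8 and 11.2 FPKM (WT), 10.6 and 11.97 (T-bet-null), 13.8 and 12.9 (STAT6-null) and 12.3 and 13.3 (double-null), with differences of 0.03, 0.25 and 0.20. The calls for Psmd10 were weak: that in STAT6-null cells went without WT replicate 1 (0.23, adjusted p = 0.0658) or STAT6-null replicate 1 (0.21, adjusted p = 0.0886), and the double-null call without WT replicate 1 (0.17, adjusted p = 0.141), WT replicate 2 (0.22, adjusted p = 0.067) or double-null replicate 2 (0.15, adjusted p = 0.175), as well as under quantile scaling (0.146, adjusted p = 0.105) or the length and GC trends removed (0.14, adjusted p = 0.112).

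The 4 chaperones that assemble the core all rose in T-bet-null and double-null cells and 2 of them, Psmg2 and Psmg3, in STAT6-null cells, where 34.9% of all genes tested rose. Psmg2 was at 8.64 and 8.60 FPKM (WT), 16.6 and 17.3 (T-bet-null), 12.7 and 12.1 (STAT6-null) and 16.1 and 15.3 (double-null). WT was lowest, STAT6-null intermediate and the other mutants highest, with no overlap of STAT6-null with either side, and the differences from WT were 0.90 (SE 0.06, adjusted p = 2.55e-06), 0.48 (SE 0.06, adjusted p = 9.09e-05) and 0.79 (SE 0.06, adjusted p = 3.23e-06). Psmg1 (chr16:95979933-95990960), which pairs with Psmg2, was at 6.31 and 4.58 FPKM (WT), 8.02 and 7.71 (T-bet-null), 6.10 and 7.51 (STAT6-null) and 7.06 and 10.2 (double-null). Its replicates lay far apart, and STAT6-null overlapped WT (0.28, adjusted p = 0.161), although it was called with the length and GC trends removed (0.365, adjusted p = 0.0497). Its T-bet-null call (0.47) did not hold without WT replicate 2 (0.28, adjusted p = 0.222), T-bet-null replicate 1 (0.45, adjusted p = 0.104) or T-bet-null replicate 2 (0.50, adjusted p = 0.0792), and its double-null call (0.57) without WT replicate 2 (0.38, adjusted p = 0.108) or double-null replicate 2 (0.34, adjusted p = 0.0997). Psmg3 (chr5:139823613-139826894) rose by 0.65, 0.65 and 0.76. Psmg4 (chr13:34162964-34178172), its partner, was at 21.4 and 19.9 FPKM (WT), 27.9 and 23.9 (T-bet-null), 25.9 and 22.0 (STAT6-null) and 26.5 and 28.8 (double-null). It rose by 0.31 in T-bet-null cells, which was lost without WT replicate 2 (0.26, adjusted p = 0.0964) or T-bet-null replicate 1 (0.20, adjusted p = 0.142), and by 0.40 in double-null cells. Its STAT6-null value of 0.20 (adjusted p = 0.0922) was called without STAT6-null replicate 2 (0.31, adjusted p = 0.0328) and with the length and GC trends removed (0.365, adjusted p = 0.00264).

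Psme1 was lower in the mutants while most subunits it docks on were higher, and Psme2 differed from genotype to genotype. Psme1 (chr14:55578494-55581527) was at 196 and 181 FPKM (WT), 146 and 142 (T-bet-null), 172 and 179 (STAT6-null) and 152 and 162 (double-null). Every mutant library was below both WT libraries, the T-bet-null pair lowest. The log2 difference was -0.38 (SE 0.06, adjusted p = 4.80e-04) in T-bet-null and -0.26 (SE 0.06, adjusted p = 0.00404) in double-null cells, both falls, and -0.10 (SE 0.06, adjusted p = 0.166) in STAT6-null cells. Psme2 (chr14:55587440-55591101), a close neighbour on the same chromosome, was at 263 and 245 FPKM (WT), 211 and 197 (T-bet-null), 300.3 and 322 (STAT6-null) and 248 and 272 (double-null). Here the genotypes separated in another way: T-bet-null was below WT, STAT6-null above WT and double-null level with WT. The differences from WT were -0.32 (SE 0.07, adjusted p = 0.00319), 0.29 (SE 0.07, adjusted p = 0.00499) and 0.03 (SE 0.07, adjusted p = 0.704).

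Both PA28 genes differed between the single mutants. STAT6-null cells exceeded T-bet-null cells by 0.61 (SE 0.07, adjusted p = 3.80e-04) for Psme2 and 0.28 (SE 0.06, adjusted p = 0.00982) for Psme1, the latter lost without T-bet-null replicate 2 (0.26, adjusted p = 0.0796) or STAT6-null replicate 2 (0.25, adjusted p = 0.0727). The ratio of Psme2 to Psme1, whose products assemble into a mixed ring, was 1.35 ± 0.010 for WT, 1.41 ± 0.041 for T-bet-null, 1.77 ± 0.039 for STAT6-null and 1.65 ± 0.025 for double-null libraries (SD, n = 2). It was thus higher in the 4 libraries that lack STAT6 than in the 4 that have it, with no overlap. RefSeq lists Psme2b, a near copy of Psme2, and fragments could be divided between them. Relative to the geometric mean of the core genes, Psme1 was 2.71 for WT, 1.79 for T-bet-null, 2.05 for STAT6-null and 1.72 for double-null cells. The same ratio for Psme2 was 3.66, 2.52, 3.64 and 2.85, so that in STAT6-null cells it was level with WT.

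Psme3 encodes PA28 gamma, the nuclear relative of PA28, and was the second most changed gene of the set. Psme3 (chr11:101316213-101323537) was at 63.1 and 67.1 FPKM (WT), 127 and 129 (T-bet-null), 124 and 119 (STAT6-null) and 147 and 154 (double-null). No mutant library came near the WT pair, and the double-null pair was the highest. The log2 differences were 0.97 (SE 0.05, adjusted p = 1.19e-06), 0.89 (SE 0.05, adjusted p = 1.37e-06) and 1.20 (SE 0.05, adjusted p = 2.26e-07). The ratio of Psme1 to Psme3 was therefore 2.90 ± 0.293 for WT, 1.12 ± 0.035 for T-bet-null, 1.45 ± 0.075 for STAT6-null and 1.04 ± 0.017 for double-null libraries. Psme4 (chr11:30771775-30881150), the large activator PA200, was at 7.95 and 7.84 FPKM (WT), 8.52 and 8.59 (T-bet-null), 7.16 and 7.61 (STAT6-null) and 6.18 and 5.96 (double-null). The double-null pair was lowest, at -0.33 (SE 0.06, adjusted p = 0.00108) against WT, and the single mutants were not called, at 0.10 and -0.09. Psmf1 (chr2:151716062-151744199), a protein that inhibits the core in the test tube, was at 6.25 and 5.25 FPKM (WT), 8.31 and 7.25 (T-bet-null), 9.12 and 9.13 (STAT6-null) and 9.34 and 9.64 (double-null). It was higher in all mutant libraries, by 0.38, 0.59 and 0.64. Psmc3ip, no part of the proteasome, was at 1.62 to 2.51 FPKM and was not called in any comparison.

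**Figure D4:**
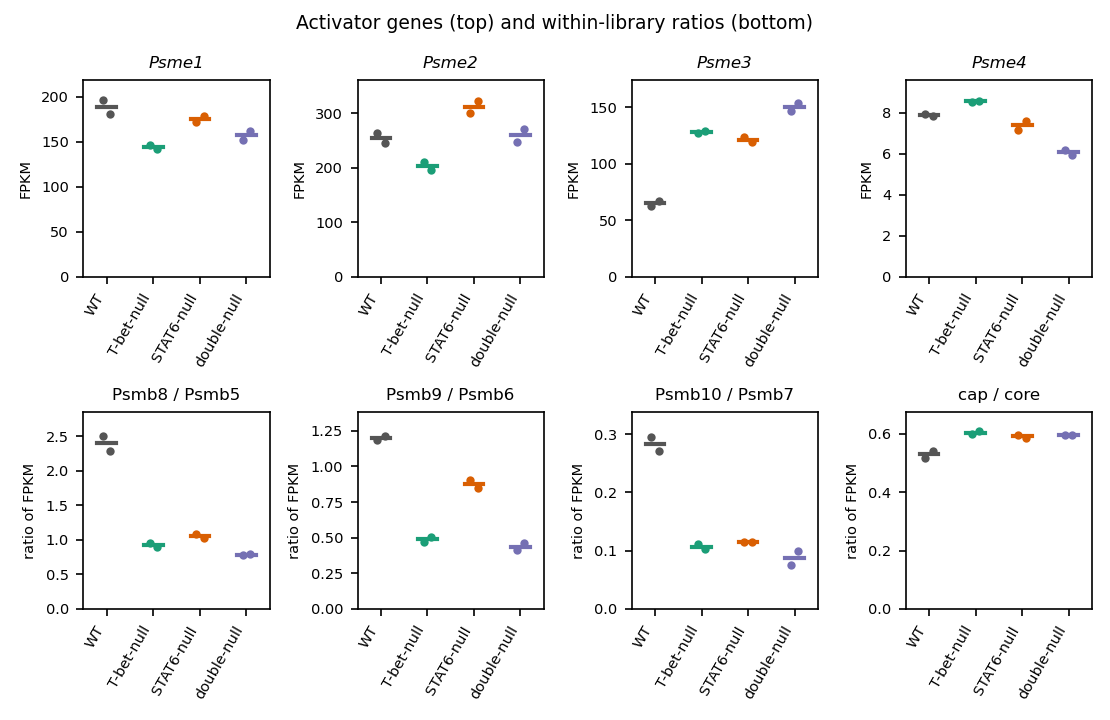
Top, FPKM of the activator genes in each library; bottom, ratios of FPKM within a library. Each point is a library, grouped by genotype on the horizontal axis, and all vertical axes start at 0; Psme1 falls from 181 to 196 FPKM in WT to 142 to 146 in T-bet-null libraries while Psme3 goes from 63.1 and 67.1 to between 119 and 154 FPKM in the mutants, and the ratio of Psmb8 to Psmb5 goes from 2.29 and 2.50 in WT to between 0.778 and 1.09 in the mutants.

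The inducible subunits that replace Psmb5, Psmb6 and Psmb7 moved against them. Psmb8 was at 118 and 103 FPKM (WT), 59.1 and 55.3 (T-bet-null), 62.95 and 64.5 (STAT6-null) and 48.9 and 59.2 (double-null), and it fell in all 3 mutants, by log2 differences of -0.93, -0.78 and -1.02. Psmb9 was at 71.1 and 65.2 FPKM (WT), 29.1 and 31.3 (T-bet-null), 62.2 and 60.7 (STAT6-null) and 28.5 and 39.1 (double-null). It fell in T-bet-null and double-null cells (-1.15 and -1.01) and was at -0.14 (SE 0.12, adjusted p = 0.309) in STAT6-null cells. Psmb10 was at 24.8 and 21.1 FPKM (WT), 10.6 and 9.63 (T-bet-null), 11.8 and 12.3 (STAT6-null) and 8.33 and 11.1 (double-null) and fell in all mutants (-1.11, -0.88 and -1.17). The ratio of each inducible gene to the constitutive gene it replaces was highest in WT. Psmb8 to Psmb5 was 2.39 ± 0.150 for WT, 0.924 ± 0.045 for T-bet-null, 1.06 ± 0.041 for STAT6-null and 0.785 ± 0.0088 for double-null libraries. Psmb9 to Psmb6 was 1.20 ± 0.019, 0.488 ± 0.029, 0.877 ± 0.036 and 0.437 ± 0.034 in the same order, and Psmb10 to Psmb7 was 0.283 ± 0.018, 0.107 ± 0.0056, 0.115 ± 0.00072 and 0.0875 ± 0.016 (SD, n = 2). No mutant library reached a WT library in any of these ratios.

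Differences among the mutants were smaller, with medians of 0.17, 0.09 and 0.07 for the 44 genes in the order below, and many calls depended on single libraries. Against T-bet-null cells, 15 of 44 genes rose and 1 fell in double-null cells, where 16.4% of all genes tested rose, 16.2% fell and 32.6% were called in all. Only Psmb2 (0.43 (SE 0.07, adjusted p = 0.00296)), Psmd8 (0.41 (SE 0.07, adjusted p = 0.00209)) and, downward, Psme4 (-0.43 (SE 0.06, adjusted p = 0.00126)) kept their call with each library left out in turn. The total of 16 calls became 6 without T-bet-null replicate 1, 5 without T-bet-null replicate 2 and 7 without double-null replicate 2. Against STAT6-null cells, 3 rose (Psmd7, Psme3, Psmg2) and 2 fell (Psme2, Psme4) in double-null cells, where 11.3% and 8.63% of all genes did and 19.9% were called in all. Of these, Psme3 (0.31 (SE 0.05, adjusted p = 0.00563)) kept its call with each library left out. The Psmd7 call (0.35) was lost without STAT6-null replicate 1 (0.31, adjusted p = 0.0669) and the Psmg2 call (0.32) without STAT6-null replicate 2 (0.29, adjusted p = 0.0535). The total of 5 became 12 without double-null replicate 1, 2 without either STAT6-null library and 3 without either T-bet-null library.

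Between the single mutants, 7 of 44 genes were higher and 1 lower in STAT6-null than in T-bet-null cells, where 12.3% and 14.9% of all genes tested were and 27.2% were called in all. Psme2 (above) and Psmg2, which was lower in STAT6-null cells at -0.42 (SE 0.06, adjusted p = 0.00107), kept their call with each library left out. The 8 calls became 3 without T-bet-null replicate 1, 2 without T-bet-null replicate 2, 3 without STAT6-null replicate 1 and 2 without STAT6-null replicate 2. For the 31 genes of the 26S subunits, 13 rose and 0 fell in double-null against T-bet-null cells, 1 rose and 0 fell against STAT6-null cells, and 4 were higher and 0 lower in STAT6-null than in T-bet-null cells. The higher calls are 41.9%, 3.23% and 12.9% of these genes, against 16.4%, 11.3% and 12.3% of all genes tested. The lower calls over all genes were 16.2%, 8.63% and 14.9%. A fit without the WT libraries, added after the data were seen, gave 19, 6 and 7 calls for the 3 comparisons among mutants, in place of 16, 5 and 8.

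The interaction asks whether STAT6 loss did the same in T-bet-null cells as in cells with T-bet. It was negative for most proteasome genes: 20 of 44 were called below 0 and 2 above, where 27.7% of all genes tested were below, 29.6% above and 57.3% called in all, and the median was -0.23 against 0.01 over all genes. A value below 0 means that the difference made by STAT6 loss was smaller, or more negative, in cells that already lacked T-bet. For Psmd7 the log2 difference made by STAT6 loss was 0.96 with T-bet and 0.16 without it, an interaction of -0.80 (SE 0.09, adjusted p = 1.74e-04). For Psmd5, the cap chaperone, it was 0.71 and -0.05, an interaction of -0.76 (SE 0.12, adjusted p = 8.24e-04). Psme3 (-0.66 (SE 0.08, adjusted p = 1.59e-04)) and Psmd11 (-0.63 (SE 0.09, adjusted p = 5.35e-04)) followed. Among the cap genes 11 of 17 were called below 0, and among the core genes 3 of 14 below and 2, Psmb1 and Psmb3, above. Of the 20 genes below 0, 13 kept their call with each library left out and 11 under every alternative, and of the 2 above, 0 did. The WT libraries enter this contrast with full weight, so an offset of WT from all mutants, such as the one seen over all genes, enters it too and cannot be told apart from a non-additive effect.

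Genes that work with the proteasome were read from lists made by function. Of 12 tested partners and maturation factors of the proteasome, 4 rose and 1 fell in T-bet-null cells, 3 rose and 2 fell in STAT6-null cells, and 4 rose and 2 fell in double-null cells. The higher calls are 33.3%, 25.0% and 33.3% of the list, no more than the 34.2%, 34.9% and 36.3% of all genes tested, and 0 of them reached a log2 difference of 0.5. Adrm1, a ubiquitin receptor of the cap, was at 0.48, 0.28 and 0.33, and its STAT6-null call did not hold without WT replicate 2 (0.20, adjusted p = 0.0672) or STAT6-null replicate 1 (0.22, adjusted p = 0.0738). Of 16 genes of ubiquitin supply and delivery, 10 rose and 4 fell in T-bet-null cells, 10 rose and 5 fell in STAT6-null cells, and 9 rose and 4 fell in double-null cells. The lower calls are 25.0% to 31.2% of this list, against 36.1% to 36.7% of all genes tested, and the higher calls 56.2% to 62.5%, against 34.2% to 36.3%. Ubqln4, a shuttle that carries ubiquitinated proteins to the cap, rose by 1.08, 0.90 and 0.96. Faf1, a cofactor of the VCP unfoldase, fell in all 3 mutants, with log2 differences of -0.81, -0.95 and -1.05.

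Of 15 tested genes around NFE2L1 and NFE2L2, 11 rose and 1 fell in T-bet-null cells, 13 rose and 1 fell in STAT6-null cells, and 12 rose and 1 fell in double-null cells, where 34.2%, 34.9% and 36.3% of all genes tested rose. The medians of the list were 0.65, 0.59 and 0.62. The list mixes these factors with genes that act with or against them and with their targets, so its counts have no single direction. Nfe2l1 (chr11:96817414-96829968) was at 27.8 and 29.7 FPKM (WT), 52.7 and 53.1 (T-bet-null), 52.6 and 53.1 (STAT6-null) and 53.7 and 57.2 (double-null). The mutants lay close to each other and above WT, by 0.86 (SE 0.06, adjusted p = 2.45e-06), 0.86 (SE 0.06, adjusted p = 1.99e-06) and 0.92 (SE 0.06, adjusted p = 9.26e-07). Hmox1, which degrades haem and is a classical target of NFE2L2, rose by 1.53, 1.50 and 1.33, Txnrd1, a thioredoxin reductase, by 1.41, 1.05 and 1.44, and Srxn1, which restores peroxiredoxins, by 1.00, 0.96 and 1.01. Nfe2l2 itself was at -0.05 (SE 0.07, adjusted p = 0.497) in T-bet-null cells and rose by 0.54 and 0.37 in STAT6-null and double-null cells. Ngly1, the deglycosylase that NFE2L1 needs for its activity, was at 0.13 in T-bet-null and rose by 1.23 and 0.67 in STAT6-null and double-null cells. Maff, a small partner of these factors, fell in all 3 mutants (-1.37, -0.86 and -1.09). The Hmox1 difference stands beside that of the erythroid genes given above, which went the opposite way.

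Of 13 genes of MHC class I loading and interferon signalling, 2 rose and 11 fell in T-bet-null cells, 3 rose and 5 fell in STAT6-null cells, and 3 rose and 7 fell in double-null cells. The lower calls are 84.6%, 38.5% and 53.8% of this list, against 36.3%, 36.1% and 36.7% of all genes tested, so the STAT6-null share is near that of all genes. Irf1, a factor that binds interferon elements, was at -1.25, 0.18 and -0.50, and Tap1, the peptide transporter, at -0.87, 0.40 and -0.50. For Tap1, as for Psme2, STAT6-null was the highest and T-bet-null the lowest genotype, and Irf1, B2m and Stat2 had the same extremes. That order was not general in the list. Tap2, Tapbp, Tapbpl, Pdia3 and Nlrc5 fell in STAT6-null cells (-0.40, -0.62, -0.54, -0.28 and -0.39) and had their highest mean in WT. Lap3, a cytosolic aminopeptidase, rose in all 3 (1.57, 1.47 and 1.83), unlike most of this list.

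Promoter windows of 300 bases, 250 before and 50 after the start, were in the RefSeq table for 38 of the 45 genes and for 27025 genes in all. Some genes had more than 1 window (32851 windows in all). Motifs were searched on both strands, and a gene was counted as holding a motif if any of its windows did. TGACNNNGC, the antioxidant response element, was held by 6 of the 38 genes, or 15.8%. It was held by 13.99% of all genes with a window and 17.2% of the 7393 tested genes with one, so the proteasome share lies between both. In Psmb5 the element lay 47 bases before the start. In Psmb6 it lay 9 bases before the start used for the window. That start falls inside the gene position given above, and so does the match. The others with it were Psmc6, Psmd9 and Psmd12, which rose in the mutants, and Psme4, which fell in double-null cells. Of the 7 alpha genes, 0 held it. CCAAT, the box bound by NF-Y, was held by 14 genes, or 36.8%, against 41.1% of all and 43.4% of tested genes, and 5 of the 7 alpha genes held it. The interferon element described above was held by 5 genes (Psmb3, Psmd4, Psmd9, Psme1, Psmg4), or 13.2%, against 3.99% of all and 3.73% of tested genes. Psme1, shown above, was lower in T-bet-null and double-null cells, whereas Psmd4 rose, Psmd9 rose and Psmb3 was not called, so genes that share the letters differed in direction. The STAT6-type motif, TTC and GAA with 4 bases between them, was held by 0 of the 38 genes against 8.01% of all and 6.56% of tested genes. AGGTGTGA, a T-box half-site, was held by 1, Psmd13, or 2.63%, against 1.48% and 1.01%. Windows without a match say only that the letters are not in these 300 bases.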

How the data were processed

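RNA was sequenced in 8 libraries of 4 genotypes, with genotypes taken from the labels. The authors deposited 1 table of FPKM; per the submitters' processing notes, Cufflinks and mm10 were used, whereas the sources used here name no aligner, version or strandedness. All 11906 lines exceeded 0.1 FPKM in every library, so genes below that are not in the table. For 43 symbols on several lines the line of highest mean was kept (65 lines set aside, 11841 symbols left), 17 names had been turned into dates, and 0 columns of values went unused. Symbols were matched to RefSeq (GRCm38) and exon overlaps to GENCODE.

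limma 3.58.1 in R 4.3.3 was fitted to log2(FPKM + 1) of the 10281 genes with at least 1 FPKM in at least 2 libraries, in 1 model with genotype means, 4 residual degrees of freedom, an intensity trend and two-sided tests. P-values were adjusted by Benjamini-Hochberg over all genes within each of 7 comparisons (threshold 0.05). The fit was tested on simulated data. Depth came from steps of 503 genes under 0.5 FPKM (tolerance 0.001 on the log2 scale), of which only 129 to 159 lay on simple fractions, so the data were not treated as counts. Other computations used Python 3.11.15 and pandas 2.3.3.

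Members, role groups and gene lists were chosen with earlier results of these data known. Every member is covered by the counts. Named with all libraries were Psme1, Psme2, Psmb5, Psmb6, Psmb7 and, per role, the genes of highest and lowest mean and of highest and lowest difference in each comparison; Psmd11 and Psmd14 were added after their values were seen. List genes were named when called at an absolute log2 difference of at least 0.5, at most the 6 largest; Adrm1 and Tap1 were added, and some list genes are not reported here and enter no count of a list. Alternatives were another pseudocount, filter, scaling, variance model, length and GC correction, replicate block and leaving out each library.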

Additional observations from a re-analysis of the deposited data

Results flagged for a closer look

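The interaction term of limma was called at an adjusted p under 0.05 for 22 of the 44 genes tested. That share is no larger than the 57.3% of all genes tested. Calls below 0 made up 45.5% of the 44 genes, against 27.7% of all genes tested. The WT libraries enter this term with full weight, so an offset of WT cannot be told apart from a non-additive effect. The values are the log2 difference of double-null and T-bet-null cells minus that of STAT6-null and WT cells. In the cap they were -0.80 for Psmd7, -0.63 for Psmd11, -0.55 for Psmd1, -0.47 for Psmc2, -0.39 for Psmc5, -0.35 for Psmd2 (-0.345), -0.34 for Psmc6, -0.33 for Psmd3 (-0.332), -0.26 for Psmc4 (-0.255), -0.25 for Psmd14 and -0.22 for Psmd12. In the core, the alpha genes Psma5, Psma3 and Psma7 were at -0.56, -0.47 (-0.472) and -0.36, and the beta genes Psmb1 and Psmb3 were at 0.31 and 0.35. Among chaperones, Psmd5 was at -0.76 (-0.755), Psmg2 at -0.58 and Psmg3 at -0.54, and among activators and inhibitors Psme3 was at -0.66, Psme4 at -0.35 (-0.349) and Psmf1 at -0.33 (-0.328). Psmb1, Psmb3, Psma7, Psmc4, Psmd3, Psmd12, Psmd14, Psmf1 and Psmg3 lost their call in at least 1 fit that left out a library. The 13 others, all below 0, kept it, but with trends of length and GC content removed Psme4 was at -0.20 (adjusted p = 0.0823) and Psmc6 at -0.22 (-0.215, adjusted p = 0.0513), so that 11 kept their call in every alternative.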

How the results depend on the processing

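The counts against WT moved little: with each library left out in turn they were 29 to 34 for T-bet-null, 33 to 34 for STAT6-null and 35 to 39 for double-null cells, against 33, 34 and 38 with all libraries. The counts among mutants moved more, from 5 to 22 for double-null against T-bet-null (16 with all libraries), 2 to 12 for double-null against STAT6-null (5) and 2 to 10 for STAT6-null against T-bet-null (8), and the interaction from 16 to 24 (22). Where 1 library was left in a genotype, it was assumed to vary like the others. The other alternatives (pseudocount 0.1 FPKM, no filter or 5 FPKM, median-of-ratios or quantile scaling, no intensity trend, trends of length and GC removed) kept all 7 counts within 1.5 times. The replicate block gave 33, 34, 38, 15, 4, 6 and 23 calls for T-bet-null against WT, STAT6-null against WT, double-null against WT, double-null against T-bet-null and against STAT6-null, STAT6-null against T-bet-null and interaction; equal numbers do not pair the libraries (correlation of deviations -0.09 to 0.091 over 6 pairs of genotypes). Of the log2 differences of single proteasome genes under each alternative, 4772 kept their side of the threshold, 171 lost a call and 109 gained one. In 1 more, Psmb4 in T-bet-null against WT, the value was called with the opposite sign, 0.134 with trends of length and GC removed. Changes of sign in values that were not called were not counted. Members had shorter transcripts than all genes tested (median 1851 against 3270 bases). The causes were not tested. FPKM hold no counts, so counting error is not known, and n = 2 limits every SD.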
